A study of Canis lupus familiaris with 6 samples.

Results

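The STAT and JAK family was followed here through every array probe that carries the name of a member gene: STAT2, STAT3, STAT4, STAT5A, STAT5B, STAT6, JAK1, JAK2 or TYK2. This gave 13 probes of the 43603 on the array and covered 6 of the 9 genes, out of 35582 gene names in the files. JAK1 had 5 probes, STAT3 had 4, and JAK2, STAT2, STAT5A and STAT5B had 1 each. No probe carried the name STAT4, STAT6 or TYK2, so STAT4 and TYK2 were not analysed here, and STAT6 was read only from 1 probe that names it in its description and is not counted among the 13.

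The 3 established canine mammary tumor lines were CMT-U27, from a simple carcinoma, CMT-U309, from a spindle cell tumor, and P114, from an anaplastic cancer, each a single line standing for its tumor type. Tumor cells were grown as co-culture with myeloid-derived suppressor cells (MDSCs), which had been sorted from the blood of healthy dogs and were kept in culture inserts, or as monoculture. The sample labels give at least 72 h of co-culture and the methods a shorter time. Each line was measured on 2 arrays that carried the same pair of RNA extracts, with co-culture RNA in Cy5 on replicate 1 and in Cy3 on replicate 2 (dye-swap), which makes 6 arrays, 12 dye channels and n = 3 lines.

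Janus kinases (JAKs) sit on the inner tails of cytokine receptors. When a cytokine brings receptor chains together, the JAKs phosphorylate each other and the receptor, and STAT proteins dock there, are phosphorylated, pair up and enter the nucleus to switch on genes. STAT3 is the main carrier of IL-6 family signals, STAT2 of interferon signals, and STAT5A and STAT5B of prolactin and growth hormone signals in the mammary gland. The arrays measured transcript abundance, not phosphorylation, so activity of these proteins was not measured.

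The probe sequences below are shown because each one carries a level or ratio described later. They are the 60-base oligonucleotides given in the scanner files, printed 5′ to 3′ in the sense of the transcript with no base marked. Coordinates are those of the files, on canFam2. A stretch longer than the probe means that it crosses an intron, which is so for STAT2, for STAT3 probes 1 and 2 and for JAK1 probes 1 to 4. The STAT2 probe lies at chr10:3629062-3629250 on the minus strand, STAT3 probe 1 at chr9:23909658-23909950 and STAT3 probe 2 at chr9:23918955-23919113 on the plus strand. The STAT5A probe (chr9:23934984-23935043) follows on the minus strand and the STAT5B probe (chr9:24027783-24027842) on the plus strand of the same chromosome. The JAK2 probe is at chr1:96501451-96501510 and JAK1 probe 4 at chr5:48406122-48407853, both on the plus strand.
STAT2: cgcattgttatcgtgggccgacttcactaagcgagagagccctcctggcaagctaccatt
STAT3 probe 1: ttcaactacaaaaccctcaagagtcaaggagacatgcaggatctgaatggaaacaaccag
STAT3 probe 2: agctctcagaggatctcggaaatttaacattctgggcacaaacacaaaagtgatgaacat
STAT5A: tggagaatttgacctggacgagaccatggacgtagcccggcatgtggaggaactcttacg
STAT5B: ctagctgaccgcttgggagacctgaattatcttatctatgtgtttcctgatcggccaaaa
JAK2: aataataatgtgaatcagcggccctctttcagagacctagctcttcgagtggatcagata
JAK1 probe 4: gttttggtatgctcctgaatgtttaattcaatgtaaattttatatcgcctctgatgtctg

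The other JAK1 probes lie on both sides of probe 4: probe 1 at chr5:48380555-48382049, probe 2 at chr5:48398226-48398953, probe 3 at chr5:48402101-48403071 and probe 5, the most distant, at chr5:48410460-48410519. STAT3 probes 3 and 4 start 6 bases apart, at chr9:23930700-23930759 and chr9:23930706-23930764. They share an unbroken run of 29 bases, so they are not independent readings of STAT3.

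All 13 probes passed the filter on low signals. They were well above background, as the scanner software flags it, in all 12 channels, with the exception of STAT5A, which missed the flag in 1 co-culture channel. Over all spots the flagged share was 53.0% to 76.9% in co-culture channels and 55.2% to 81.0% in monoculture channels, and no spot was saturated. The spot of JAK1 probe 5 on P114 replicate 2 was marked as an outlier and dropped, so its P114 values rest on 1 array. Before any member was read, the 2 dye-swap arrays of P114 agreed least: across all probes their ratios correlated at r = -0.39, against -0.09 in CMT-U309 and 0.26 in CMT-U27. Replicate 2 of P114 correlated at 0.47 and 0.51 with replicate 2 of CMT-U27 and CMT-U309, and its replicate 1 at -0.22 and 0.03 with their replicate 1. Calls in the ratio are therefore given with and without P114.

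Cell type markers were read beside the members, because the lines differ in type. Summed signal of 10 epithelial genes was 130805 to 156758 in CMT-U27 channels, 5493 to 8058 in P114 and 6661 to 11113 in CMT-U309. Summed signal of 10 mesenchymal genes was 7758 to 11199 in CMT-U27, 287375 to 411906 in P114 and 786224 to 923193 in CMT-U309. The epithelial adhesion protein EPCAM was at a log2 level of 15.69 in CMT-U27, 9.52 in P114 and 7.03 in CMT-U309. It and KRT19 (16.25) were the brightest of the 10 in CMT-U27. KRT14 went the other way, at 11.23 in CMT-U27, 12.21 in P114 and 13.10 in CMT-U309. By the test described below, 8 of the 10 were over 2-fold higher in CMT-U27 than in P114 and 0 lower, where 23% of all probes differed so. Against CMT-U309, 8 were higher and 1 (KRT14) lower, where 26% differed so. The former 8 include GRHL2, well above background in no P114 channel. Of 14 myeloid genes, 3 were well above background in all 12 channels and 3 (ITGAM, SPI1 and LYZ) in none; their summed signal was 1969 to 3535 in co-culture channels and 2155 to 3538 in monoculture channels of P114 and CMT-U309. On the CMT-U27 arrays it was 15597 in co-culture against 8916 in monoculture and 15318 against 9321. There, 5 of the 14 genes were well above background in co-culture on each array, against 7 and 8 in monoculture. The leukocyte marker PTPRC had the flag in 3 of the 12 channels, 1 of them co-culture.

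The level of a gene in each line answers how the 3 tumor lines differ in their stock of JAK and STAT transcripts. A level is the log2 of the processed signal after normalization between arrays, and it was compared between lines within a probe, never between probes. The test was limma on the 6 RNA extracts, 2 per line (co-culture and monoculture), with culture as a covariate and p-values adjusted over 40861 probes. Both extracts of a line share its slide, so line and slide cannot be told apart. The p-values measure only the spread between the extracts of a line that is left once the culture shift shared by the lines is removed. In such bulk RNA, a smaller share of cells with a transcript and less of it per cell cannot be told apart.

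STAT2, which pairs with other STAT proteins downstream of interferon receptors, differed most between lines of all 13 probes. In P114 its log2 level was 9.71 and 9.07 in the co-culture channels and 9.71 and 9.49 in the monoculture channels. In CMT-U27 it was 7.43 and 7.30 in co-culture and 7.13 and 7.16 in monoculture. In CMT-U309 it was 11.39 and 11.79 in co-culture and 10.99 and 11.69 in monoculture. The 3 lines did not overlap in any channel, with CMT-U309 highest and CMT-U27 lowest. CMT-U309 exceeded CMT-U27 by 18.5-fold (log2 difference of CMT-U27 minus CMT-U309 -4.21 ± 0.17 SE, limma adjusted p = 2.62e-08). P114 exceeded CMT-U27 by 4.72-fold (2.24 ± 0.17, adjusted p = 2.98e-06) and was 3.92-fold below CMT-U309 (-1.97 ± 0.17, adjusted p = 1.39e-05). With normexp background correction the log2 difference was 1.49 for P114 minus CMT-U27 and -3.22 for CMT-U27 minus CMT-U309, and both passed.

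**Figure D1:**
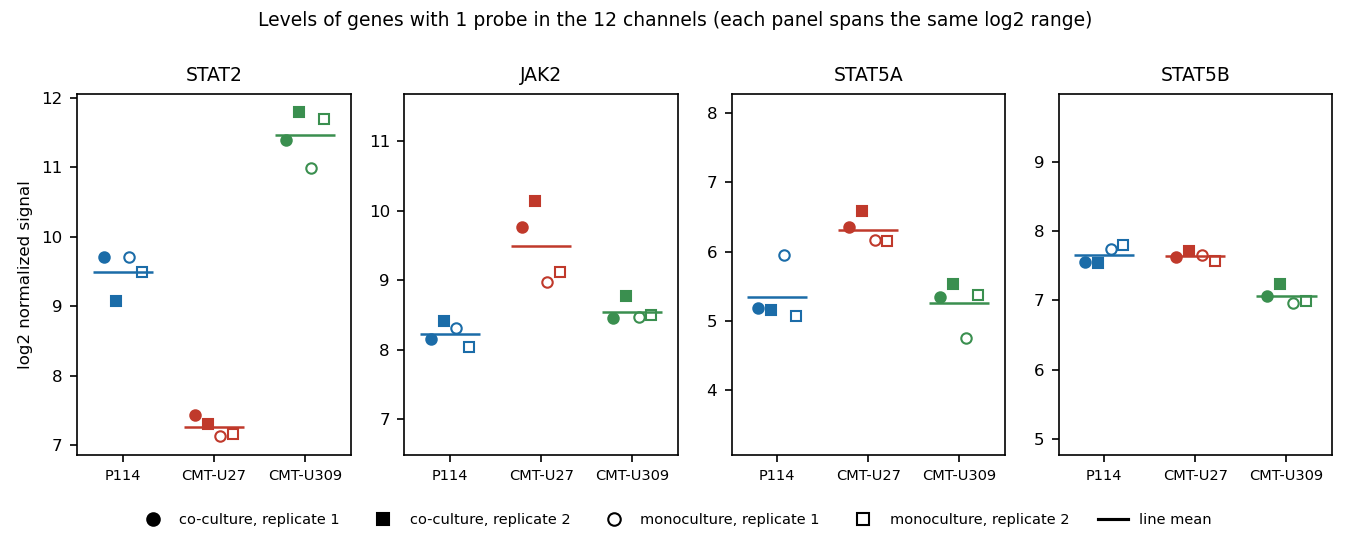
Log2 normalized signal (y axis) of STAT2, JAK2, STAT5A and STAT5B in the 12 channels, by line (x axis); filled symbols are co-culture, open symbols monoculture, circles replicate 1, squares replicate 2 and bars the line mean. STAT2 separates all 3 lines, JAK2 and STAT5A are highest in CMT-U27, and STAT5B is lowest in CMT-U309.

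STAT3, which carries IL-6 family signals, was highest in CMT-U27 and lowest in CMT-U309 by each of its 4 probes. Its brightest probe, probe 3, had log2 levels of 9.93 and 9.97 in co-culture and 10.02 and 10.13 in monoculture of P114. The same probe gave 10.93 and 11.18 in co-culture and 10.99 and 11.09 in monoculture of CMT-U27. In CMT-U309 it gave 9.23 and 9.21 in co-culture and 9.56 and 9.20 in monoculture. The lines did not overlap. CMT-U27 exceeded CMT-U309 by 3.36-fold at this probe (1.75 ± 0.14 SE, limma adjusted p = 4.35e-06) and P114 by 2.05-fold (log2 difference of P114 minus CMT-U27 -1.03 ± 0.14, adjusted p = 2.06e-04). P114 exceeded CMT-U309 by 1.64-fold (0.71 ± 0.14, adjusted p = 0.00355).

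The other STAT3 probes gave the same order of lines. Probe 2, for example, averaged 7.98 ± 0.12 (SD over 4 channels) in CMT-U27, 6.68 ± 0.20 in P114 and 6.16 ± 0.34 in CMT-U309. CMT-U27 exceeded CMT-U309 by 3.18-fold at probe 1, 3.53-fold at probe 2 and 2.40-fold at probe 4. The log2 difference of CMT-U27 minus CMT-U309 lay between 1.26 and 1.82 over the 4 probes, and all 4 passed the adjusted threshold. That of P114 minus CMT-U27 lay between -1.30 and -0.75, and all 4 passed. That of P114 minus CMT-U309 lay between 0.51 and 0.79, and probes 3 and 4 passed, while probes 1 and 2 gave limma adjusted p = 0.073 and 0.0864 with overlapping channels. With normexp correction all 4 passed in both comparisons with CMT-U27, at -0.77 to -0.40 for P114 minus CMT-U27 and 0.60 to 1.23 for CMT-U27 minus CMT-U309. The call of probe 1 between P114 and CMT-U27 depended on single arrays, with limma adjusted p = 0.0978 without P114 replicate 2, 0.0932 without CMT-U27 replicate 2 and 0.0896 without CMT-U309 replicate 1. The call of probe 4 between P114 and CMT-U309 was lost after normexp background correction (0.34, adjusted p = 0.0858).

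JAK2, the kinase that serves the growth hormone, prolactin and erythropoietin receptors, was also highest in CMT-U27. Its log2 level in CMT-U27 was 9.76 and 10.13 in co-culture and 8.97 and 9.11 in monoculture. In P114 it was 8.15 and 8.42 in co-culture and 8.31 and 8.04 in monoculture. In CMT-U309 it was 8.46 and 8.77 in co-culture and 8.47 and 8.49 in monoculture. Every CMT-U27 channel lay above every channel of the other lines, and within CMT-U27 both co-culture channels lay above both monoculture channels. CMT-U27 exceeded P114 by 2.40-fold (log2 difference of P114 minus CMT-U27 -1.27 ± 0.21 SE, limma adjusted p = 8.29e-04) and CMT-U309 by 1.93-fold (0.95 ± 0.21, adjusted p = 0.00433). P114 minus CMT-U309 was -0.32 ± 0.21 and did not pass (adjusted p = 0.306), although the channels of these lines did not overlap. All these differences average both cultures. The monoculture means were 9.04 in CMT-U27, 8.17 in P114 and 8.48 in CMT-U309, and the co-culture means 9.95, 8.29 and 8.62. With normexp correction both differences from CMT-U27 passed but were under 2-fold, at -0.78 for P114 minus CMT-U27 and 0.53 for CMT-U27 minus CMT-U309.

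JAK1, the kinase shared by interferon receptors and the IL-6 receptor family, had its highest mean in CMT-U309 at each of its 5 probes. Probe 5, the brightest, was at 13.74 and 13.53 in co-culture and 14.22 and 13.86 in monoculture of CMT-U309. It was at 12.87 and 13.04 in co-culture and 13.40 and 13.15 in monoculture of CMT-U27, and at 12.69 and 12.83 in co-culture and monoculture of the 1 P114 array kept. CMT-U309 exceeded P114 by 2.11-fold at this probe (log2 difference of P114 minus CMT-U309 -1.08 ± 0.14 SE, limma adjusted p = 2.48e-04) and CMT-U27 by 1.65-fold (-0.72 ± 0.14, adjusted p = 0.0017).

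Over the 5 JAK1 probes the log2 difference of P114 minus CMT-U309 lay between -1.08 and -0.49, and 4 passed. Probe 2 did not (limma adjusted p = 0.0988), although its channels did not overlap. The difference of CMT-U27 minus CMT-U309 lay between -0.89 and -0.40, and probes 1, 4 and 5 passed. The difference of P114 minus CMT-U27 lay between -0.43 and 0.20 and no JAK1 probe passed. Scaling to a common median in place of quantile normalization of average intensity took the call between CMT-U27 and CMT-U309 from probe 1 (-0.22, limma adjusted p = 0.198) and probe 5 (-0.34, adjusted p = 0.066), and without CMT-U309 replicate 1 that of probe 1 was -0.37 (adjusted p = 0.0628). Normexp correction took the call of probe 4 between P114 and CMT-U309 (-0.31, adjusted p = 0.085) and moved that difference at probe 3 from -0.93 to -0.32, which still passed.

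**Figure D2:**
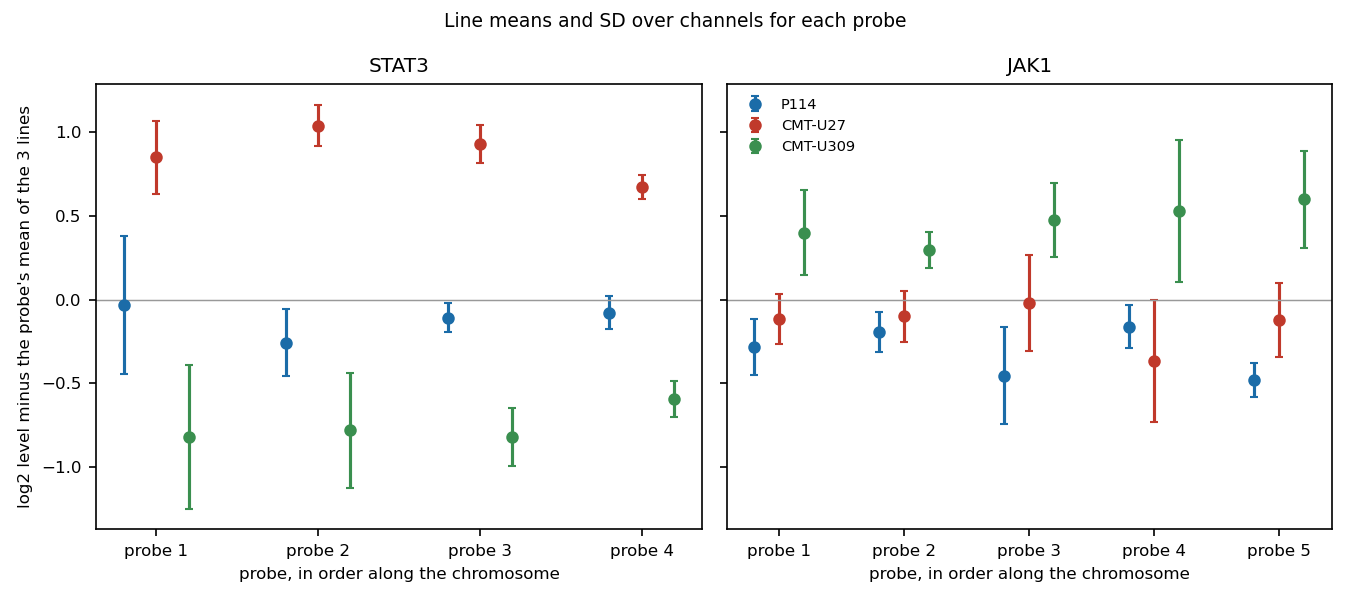
Line means of the log2 level of each STAT3 probe (left) and each JAK1 probe (right), less the mean of the 3 lines at that probe (y axis), with SD over 4 channels (2 channels for JAK1 probe 5 in P114). CMT-U27 is highest and CMT-U309 lowest at all 4 STAT3 probes, and CMT-U309 is highest at all 5 JAK1 probes.

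STAT5A and STAT5B, neighboring genes whose proteins carry prolactin signals to milk protein genes, did not share one pattern. STAT5A was at 6.36 and 6.59 in co-culture and 6.17 and 6.15 in monoculture of CMT-U27. In P114 it was at 5.19 and 5.15 in co-culture and 5.95 and 5.07 in monoculture. In CMT-U309 it was at 5.35 and 5.54 in co-culture and 4.76 and 5.37 in monoculture. CMT-U27 was above all channels of the other lines, which overlapped each other. CMT-U27 exceeded CMT-U309 by 2.09-fold (1.06 ± 0.28 SE, limma adjusted p = 0.0104) and P114 by 1.97-fold (log2 difference of P114 minus CMT-U27 -0.98 ± 0.28, adjusted p = 0.0175). P114 minus CMT-U309 was 0.09 ± 0.28 (adjusted p = 0.857). With normexp correction both differences passed at a smaller size, 0.27 for CMT-U27 minus CMT-U309 and -0.32 for P114 minus CMT-U27. Without P114 replicate 2 these 2 calls of STAT5A gave adjusted p = 0.0686 against CMT-U309 and 0.191 against P114, and without CMT-U309 replicate 1 they gave 0.0812 and 0.0552.

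STAT5B was lower in CMT-U309 than in both other lines. Its levels were 7.56 and 7.54 in co-culture and 7.74 and 7.80 in monoculture of P114. They were 7.63 and 7.71 in co-culture and 7.66 and 7.57 in monoculture of CMT-U27. In CMT-U309 they were 7.06 and 7.24 in co-culture and 6.96 and 6.99 in monoculture. The CMT-U309 channels lay below all others, while P114 and CMT-U27 overlapped (0.02 ± 0.19 SE, limma adjusted p = 0.96). P114 exceeded CMT-U309 by 1.51-fold (0.60 ± 0.19, adjusted p = 0.0412) and CMT-U27 exceeded it by 1.49-fold (0.58 ± 0.19, adjusted p = 0.0317). Both calls were near the threshold. They were lost without P114 replicate 2 (adjusted p = 0.106 and 0.0799), CMT-U27 replicate 1 (0.0831 and 0.0612), CMT-U27 replicate 2 (0.0689 and 0.0528) or CMT-U309 replicate 1 (0.129 and 0.107).

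The probe described as STAT6, the STAT of IL-4 and IL-13 signals, lies at chr10:4216673-4216732 on the minus strand. Its mean was 5.83 ± 0.35 (SD over 4 channels) for CMT-U27, 5.82 ± 0.37 for CMT-U309 and 6.08 ± 0.07 for P114. The lines overlapped and no pair passed (log2 differences of 0.24, 0.26 and 0.02, each ± 0.24 SE, limma adjusted p = 0.461, 0.472 and 0.968).

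The orders of the lines thus differed from member to member, as the plot of line differences shows. Between P114 and CMT-U27, 7 of 13 probes passed the adjusted threshold, where 39.9% of all probes did, and 4 also differed over 2-fold, where 23% of all probes did. Between P114 and CMT-U309, 8 of 13 passed against 28.1%, and 2 over 2-fold against 14.5%. Between CMT-U27 and CMT-U309, 11 of 13 passed against 43.5%, and 6 over 2-fold against 26%. The channels of the lines did not overlap for 8 of 13 probes against 38.2% in the first comparison, for 10 of 13 against 30.5% in the second and for 13 of 13 against 41.2% in the third. The 9 probes of STAT3 and JAK1 are repeated readings of 2 genes, so these counts are not counts of independent genes. With a gene counted when any of its probes passed, adjusted calls covered 4 of 6 genes for P114 against CMT-U27. They covered 4 of 6 for CMT-U309 against P114 and 6 of 6 for CMT-U27 against CMT-U309. STAT3 and JAK1 had several probes that could pass, and the share over all genes was not computed.

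**Figure D3:**
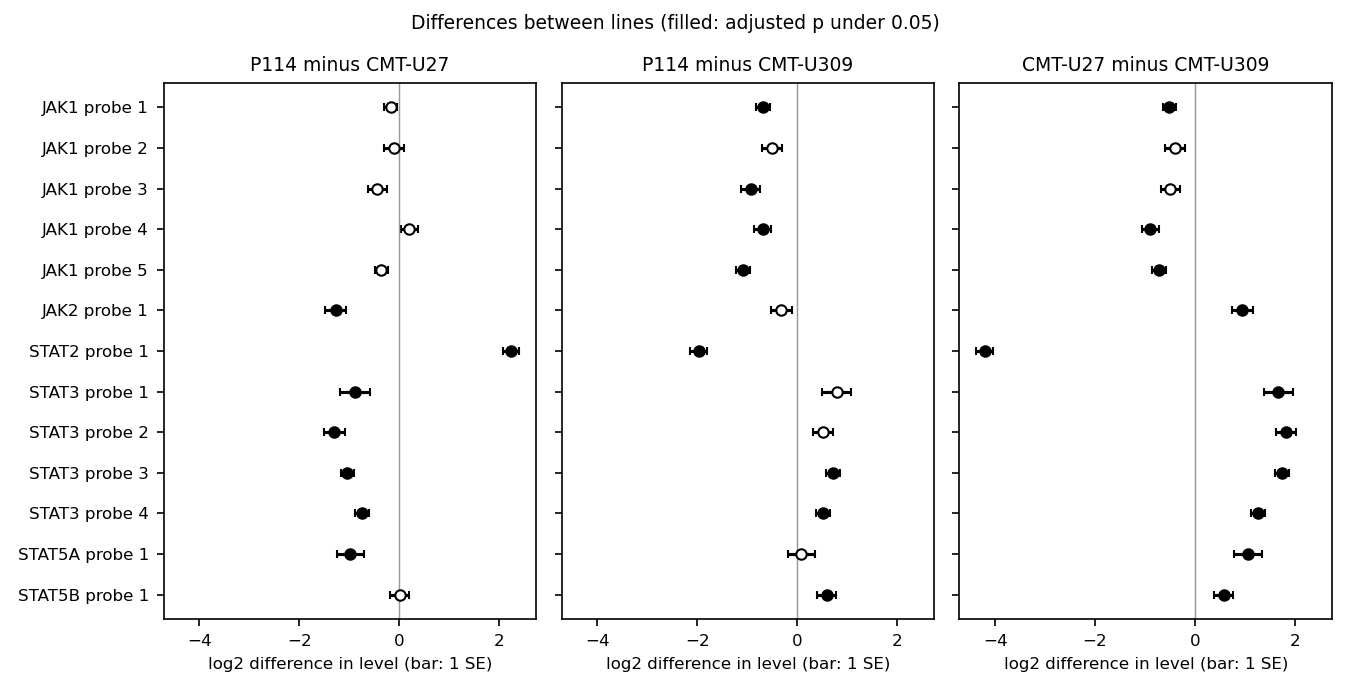
Log2 difference in level between lines (x axis) for each of the 13 probes (y axis), with bars of 1 SE; filled points passed limma adjusted p under 0.05 over 40861 probes. The STAT2 points lie at 2.24, -1.97 and -4.21, farther from 0 than any other probe in each panel.

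The effect of MDSC co-culture on each gene was read as a log2 ratio, co-culture over monoculture, on each array, with the channels scaled to one median. The 2 arrays of a line were averaged, and the mean of the 3 lines was tested against 0 with limma. No member probe passed the methods' thresholds, an unadjusted p under 0.05 with over 2-fold change, in either direction, where 1.03% of all probes passed as higher and 0.198% as lower. No member probe passed an adjusted threshold, where 0% of all probes did. At an unadjusted p under 0.05 alone, 2 of 13 passed (JAK2 and JAK1 probe 5), where 9.93% of all probes did. The median size of the log2 ratio was 0.11 over the 13 probes and 0.18 over all probes.

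JAK2 had the largest mean ratio of the members. Its log2 ratio was 0.78 and 1.05 on the CMT-U27 arrays, -0.13 and 0.39 on the P114 arrays and -0.01 and 0.37 on the CMT-U309 arrays. It was above 0 on 4 of 6 arrays, on both arrays of CMT-U27 and on replicate 2 of the other lines. The mean of the lines was 0.41 ± 0.17 SE, a 1.33-fold ratio with a 95% interval of 1.02 to 1.73 and limma adjusted p = 0.499. The SD between lines was 0.44. On both CMT-U27 arrays, where the JAK2 ratio was highest, the summed myeloid signal was also higher in co-culture, as given above. The leading gene of that sum in CMT-U27 was S100A8 (log2 level 13.23, ratio 0.85), against 9.09 in P114 and 6.85 in CMT-U309. It was well above background in all 6 monoculture channels too, while ITGAM, SPI1 and LYZ were so in no channel. Fewer of the 14 myeloid genes were well above background there in co-culture, 5 against 7 and 5 against 8 in monoculture. The part of myeloid RNA in the JAK2 ratio was not tested.

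STAT3 did not have a shared direction among lines or probes. Probe 1 was at -0.88 and -0.38 in P114, 0.21 and 0.30 in CMT-U27 and 0.13 and 0.95 in CMT-U309. Probe 2 was at -0.43 and 0.17 in P114, 0.18 and 0.18 in CMT-U27 and -0.20 and 0.77 in CMT-U309. Probe 3 was at -0.05 and -0.15 in P114, -0.08 and 0.12 in CMT-U27 and -0.33 and 0.10 in CMT-U309, and probe 4 stayed between -0.26 and 0.13. P114 means were below 0 at all 4 probes and CMT-U27 means above 0 at all 4, while CMT-U309 means were above 0 at probes 1 and 2 and below 0 at probes 3 and 4. The means of the 3 lines were 0.06 ± 0.24, 0.11 ± 0.17, -0.07 ± 0.11 and -0.06 ± 0.11 (SE), with limma adjusted p between 0.808 and 0.941. The 95% interval of the fold for probe 3 was 0.80 to 1.14, and for probe 1, the most variable, 0.72 to 1.51. The sign of the mean changed at probe 2 under normexp correction (-0.02).

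**Figure D4:**
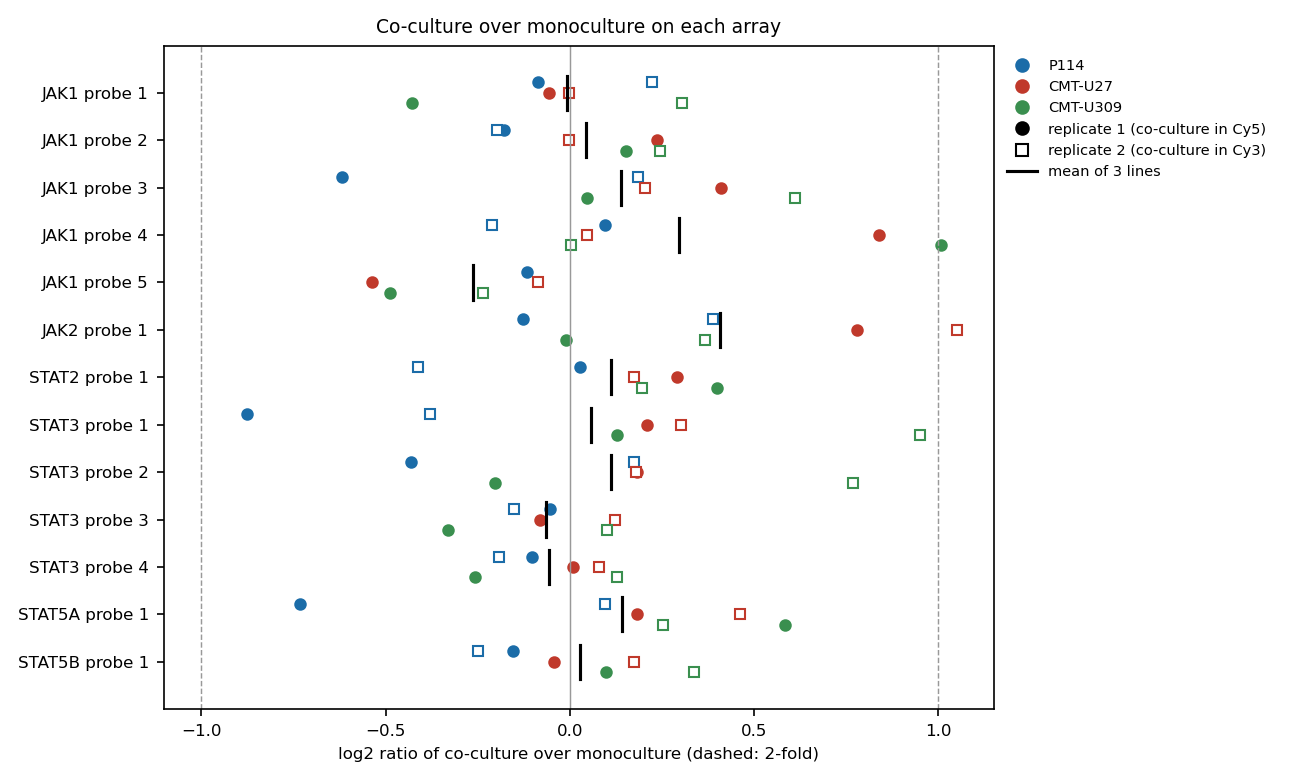
Log2 ratio of co-culture over monoculture (x axis) of each of the 13 probes (y axis) on the 6 arrays; colors are lines, filled circles replicate 1, open squares replicate 2, black bars the mean of 3 lines, and dashed lines mark 2-fold. The means lie between -0.26 (JAK1 probe 5) and 0.41 (JAK2), and the arrays of most probes lie on both sides of 0.

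The JAK1 probes disagreed with each other in ratio. Probe 4 was at 0.10 and -0.21 in P114, 0.84 and 0.05 in CMT-U27 and 1.01 and 0.00 in CMT-U309. Probe 5 was at -0.12 on the P114 array kept, -0.54 and -0.09 in CMT-U27 and -0.49 and -0.24 in CMT-U309. Probe 4 thus stood near or over 2-fold only where co-culture RNA was in Cy5, in CMT-U27 and CMT-U309, and probe 5 was below 0 on 5 of 5 arrays. Their means were 0.30 ± 0.14 and -0.26 ± 0.11 (SE), with limma adjusted p = 0.501 and 0.499. Probes 1, 2 and 3 had means of -0.01 ± 0.11, 0.04 ± 0.16 and 0.14 ± 0.16, with adjusted p between 0.739 and 0.984.

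STAT2 had ratios of 0.03 and -0.41 in P114, 0.29 and 0.17 in CMT-U27 and 0.40 and 0.20 in CMT-U309, and a mean of 0.11 ± 0.14 SE (limma adjusted p = 0.757). STAT5A had ratios of -0.73 and 0.10 in P114, 0.18 and 0.46 in CMT-U27 and 0.58 and 0.25 in CMT-U309, and a mean of 0.14 ± 0.22 (adjusted p = 0.822). STAT5B had ratios of -0.16 and -0.25 in P114, -0.04 and 0.17 in CMT-U27 and 0.10 and 0.34 in CMT-U309, and a mean of 0.03 ± 0.16 (adjusted p = 0.959). All 3 genes were above 0 on both arrays of CMT-U309. The probe described as STAT6 had a mean of 0.16 ± 0.19 (adjusted p = 0.755).

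Without P114 the mean of CMT-U27 and CMT-U309 passed an adjusted threshold at 3 of 13 member probes, where 15.1% of all probes did. These were JAK2 (0.55 ± 0.16 SE, limma adjusted p = 0.0374), JAK1 probe 4 (0.48 ± 0.11, adjusted p = 0.0158) and JAK1 probe 5 (-0.34 ± 0.09, adjusted p = 0.0283). The latter are readings of 1 gene in opposite directions. With normexp correction the same 3 probes passed without P114, at 0.38, 0.35 and -0.60. Over all probes 10.5% passed in that setting. The other 10 probes had means of -0.05 to 0.40 without P114. Each line was left out in turn, and without CMT-U27 or without CMT-U309 no member probe passed. With only P114 replicate 1 left out, no member probe passed either, though JAK1 probe 5 then had no value. The difference between P114 and the other lines was not tested. The members' median log2 ratio without P114 was 0.23, against 0.01 over all probes, or 0.09 against -0.01 with normexp correction.

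Agreement between probes of a gene was described by the spread of their values and by correlation over channels, which share lines, slides and extracts. Over the 12 channels the levels of the 4 STAT3 probes correlated pairwise at r = 0.90 to 0.99. The levels of the 5 JAK1 probes correlated at r = 0.44 to 0.90, over 12 channels or, with probe 5, over 10. Ratios agreed less. STAT3 probes 3 and 4, which overlap in sequence, correlated at r = 0.93 over 6 arrays, and probes 1 and 3 at r = 0.38. JAK1 probes 4 and 5 correlated at r = -0.93 over 5 arrays and probes 1 and 4 at r = -0.80 over 6. The mean ratios spanned 0.18 over the STAT3 probes and 0.56 over the JAK1 probes, or 0.05 and 0.86 after normexp correction.

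Genes with the most similar levels over the 12 channels were sought among 7915 genes well above background in all of them. For STAT2 they were ADRB3 and NKG7 (both r = 0.998) and LOC612691 (r = 0.994). For STAT3 probe 3 they were ST3GAL5 (r = 0.992), MOB3B (r = 0.991) and SDF2L1 (r = 0.989). For JAK2 they were PPP1R15B (r = 0.96), GNL1 (r = 0.949) and RWDD2B (r = 0.949). For STAT5B they were KLHL12 and TP53I3 (both r = 0.97) and BMI1 (r = 0.96). With 3 lines on 3 slides, such a value says that a gene has nearly the same 3 line means.

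Around the family, the ligands came first in the pathway. Of 21 cytokine ligand genes tested at their brightest probe, none passed the methods' thresholds in co-culture. Over all probes 1.03% passed as higher and 0.198% as lower. The median log2 ratio of the ligands was 0.01, as over all probes. Without P114, 2 of 21 passed an adjusted threshold, both higher (CTF1, 0.41, and IL4, 0.38), where 8.76% of all probes passed as higher and 6.34% as lower. Over 2-fold, 23% of all probes were called between P114 and CMT-U27, 14.5% between P114 and CMT-U309 and 26% between CMT-U27 and CMT-U309. Between lines, 6 ligands were called over 2-fold higher and 1 lower in P114 than in CMT-U27. The 6 include IL6 and IL12B, well above background in no CMT-U27 channel, with bounds, explained below, of 1.60-fold and 1.26-fold. IL12B is also among the 5 lower in CMT-U27 than in CMT-U309, with a bound of 1.16-fold. The granulocyte growth factor CSF3 was at least 11.6-fold higher (limma adjusted p = 1.51e-06), IL6 at least 1.60-fold higher (adjusted p = 0.00116) and CSF2 higher by 2.58 on the log2 scale, while IL11, an IL-6 family member, was lower (-1.97). A fold is written as at least that size where the lower line had the probe well above background in no channel, and it is set against the lowest signals on those arrays that were well above background. Such a bound was not tested. The adjusted p beside it, and the counts over 2-fold here and below, come from the limma log2 difference with the low signals kept as measured. Against CMT-U309, P114 was higher in 2 (CSF3, 4.70, and PRL, 1.17) and lower in 2 (IL12A, -1.34, and CSF2, -1.18). CMT-U27 was lower than CMT-U309 in 5, led by CSF2 (-3.76), IL6 (at least 2.39-fold, adjusted p = 2.01e-04) and IL12A (-2.45), and higher in IL11 (1.83). CSF3 was well above background in 4 of 4 P114 channels and in 1 of 4 of CMT-U309.

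Of 26 receptor genes tested, 1 passed the methods' thresholds in co-culture, where 1.03% of all probes passed as higher and 0.198% as lower. This receptor was IL28RA, the private chain of the interferon lambda receptor, whose log2 ratio was 1.77 for CMT-U27, 1.08 for P114 and 1.06 for CMT-U309, with a mean of 1.31 ± 0.35 SE (limma adjusted p = 0.50). Its probe passed the background flag in 2 of the 12 channels, 1 of each culture. Without P114 its mean was 1.42 (adjusted p = 0.0238). In that setting 4 of 26 receptors passed an adjusted threshold as higher and 2 as lower, against 8.76% and 6.34% of all probes. By the methods' thresholds, no receptor was called under normexp correction, without P114 replicate 2, without CMT-U309 replicate 2 or among probes well above background in all channels. Between lines, GHR, the growth hormone receptor that signals through JAK2, was at least 10.4-fold higher in CMT-U309 than in P114 (limma adjusted p = 1.09e-06) and at least 1.47-fold higher in CMT-U27 than in P114 (adjusted p = 6.45e-04). CMT-U27 minus CMT-U309 was -2.82 for GHR. IL7R was lower in P114 (-4.02) and CMT-U27 (-4.46) than in CMT-U309. Over 2-fold, 3 receptors were higher and 1 lower in P114 than in CMT-U27, 2 higher and 2 lower in P114 than in CMT-U309, and 2 higher and 4 lower in CMT-U27 than in CMT-U309. Over all probes 23%, 14.5% and 26% were called so in these comparisons. IL20RB and GHR are counted in the first and LEPR in the third, though their bounds are only 1.27-fold, 1.47-fold and 1.66-fold.

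Of 14 inhibitors tested, 1 passed the methods' thresholds in co-culture, where 1.03% of all probes passed as higher and 0.198% as lower. SOCS3, which STAT3 induces and which blocks JAKs at the receptor, had a log2 ratio of -1.41 for CMT-U27, -1.20 for CMT-U309 and -0.45 for P114, with a mean of -1.02 ± 0.27 SE (limma adjusted p = 0.50). It passed the background flag in 3 co-culture and 5 monoculture channels of 6 each. Without P114 its mean was -1.30 (adjusted p = 0.011). In that setting 2 of 14 inhibitors passed an adjusted threshold as higher and 2 as lower, against 8.76% and 6.34% of all probes. With normexp correction 1 inhibitor passed without P114, where 10.5% of all probes did. By the methods' thresholds, no inhibitor was called under normexp correction, with the methods' t-test, among probes well above background in all channels, without CMT-U27 or CMT-U309, or without replicate 2 of any line. Between lines, CMT-U27 was higher than P114 in SOCS7 (at least 2.78-fold, adjusted p = 1.58e-04), the phosphatase PTPN6 and SOCS6 (P114 minus CMT-U27 -2.68 and -1.07), and lower in SOCS5 (1.29). CMT-U27 was higher than CMT-U309 in SOCS7 (at least 5.64-fold, adjusted p = 4.23e-05), PTPN6 (2.37) and SOCS6 (1.06) and lower in PIAS1 (-1.52) and SOCS5 (-1.36). No inhibitor differed over 2-fold between P114 and CMT-U309, where 14.5% of all probes did, against 23% between P114 and CMT-U27 and 26% between CMT-U27 and CMT-U309. Of 9 partner genes tested, none passed the methods' thresholds in co-culture, where 1.03% of all probes passed as higher and 0.198% as lower. Without P114, 1 passed an adjusted threshold as higher and 1 as lower (NCOA1, -0.45), against 8.76% and 6.34% of all probes. IRF9, the DNA-binding partner of STAT2, was lower in CMT-U27 than in CMT-U309 (-1.01), as was LMO4 (-2.11). LMO4 was also lower in P114 than in CMT-U309 (-1.16).

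Of 15 STAT3 target genes tested, none passed the methods' thresholds in co-culture, with a median log2 ratio of 0.05. Over all probes 1.03% passed as higher and 0.198% as lower. At an unadjusted p under 0.05, 4 of 15 passed, where 9.93% of all probes did. Without P114 the median was 0.10. Over all probes 8.76% then passed an adjusted threshold as higher, and of the 15 targets 5 did, none as lower. These were the growth regulator MYC (0.62, limma adjusted p = 0.00312), the vessel growth factor VEGFA (0.51, adjusted p = 0.00577), BCL2L1 (0.39, adjusted p = 0.0174), the cell cycle gene CCND1 (0.38, adjusted p = 0.0218) and ICAM1 (0.35, adjusted p = 0.0249). With normexp correction 2 of 15 passed without P114, where 10.5% of all probes did. Over 2-fold, 23% of all probes were called between P114 and CMT-U27, 14.5% between P114 and CMT-U309 and 26% between CMT-U27 and CMT-U309. Of the targets, 5 were over 2-fold higher and 1 lower in P114 than in CMT-U27, where STAT3 itself was lower in P114. The highest were the mucin MUC1 (4.88), TIMP1 (3.87) and the survival gene BCL2L1 (2.24), and MCL1 was lower (-1.05). CMT-U27 was lower than CMT-U309 in 6, led by HGF (at least 13.0-fold, limma adjusted p = 2.81e-06), MUC1 (-4.47) and TIMP1 (-3.47), and higher in MCL1 (1.31) and FOS (1.25). P114 was lower than CMT-U309 in HGF (at least 9.63-fold, adjusted p = 8.43e-06) and ICAM1 (-1.08).

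Of 22 interferon target genes tested, none passed the methods' thresholds in co-culture, with a median log2 ratio of 0.00. Over all probes 1.03% passed as higher and 0.198% as lower. Without P114, 2 of 22 passed an adjusted threshold, both higher (OAS1, 0.67, and GBP1, 0.82), where 8.76% of all probes passed as higher. Between lines they were mostly lower in P114: 14 were over 2-fold lower and 2 higher than in CMT-U27, with a median log2 difference of -1.89, and 12 lower and 1 higher than in CMT-U309, with a median of -1.17. Over all probes these medians were both 0.06. Over 2-fold, 23% of all probes were called between P114 and CMT-U27, 14.5% between P114 and CMT-U309 and 26% between CMT-U27 and CMT-U309. The 14 include RSAD2, IFIT2 and IFIT3, well above background in no P114 channel, with bounds of 0.56-fold, 1.64-fold and 1.71-fold. The 12 include IFIT2 and IFIT3, with bounds of 0.93-fold and 1.61-fold. Over 2-fold is thus not shown for these genes. The antiviral genes MX1 (-4.08 against CMT-U27 and -5.74 against CMT-U309), ISG15 (-5.36 against CMT-U309) and the interferon regulator IRF7 (-4.24 and -4.29) were among the lowest, with the immunoproteasome gene PSMB9 (-4.47 against CMT-U27). In P114, MX1 was well above background in 1 of 4 channels and IRF7 in 2 of 4. OAS1 (1.32) and OAS2 (1.26) were higher in P114 than in CMT-U27, and CXCL10 (1.69) than in CMT-U309. CMT-U27 was higher than CMT-U309 in 4, led by CXCL10 (4.42), PSMB9 (3.23) and IRF1 (2.37), and lower in 7, led by USP18 (at least 4.18-fold, limma adjusted p = 4.59e-04), IFI44 (-2.32) and OAS1 (-1.82). STAT2 did not follow the order of these medians, being lowest in CMT-U27. With normexp correction the count of called genes went from 16 to 9 between P114 and CMT-U27 and from 13 to 7 between P114 and CMT-U309. Of the 22 genes, 10 were well above background in all 12 channels, and of these 10, 7 and 3 were called. The share of all probes called over 2-fold in these settings was not computed.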

How the data were processed

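RNA of 3 canine mammary tumor lines, co-cultured with MDSCs or in monoculture, was compared on 6 two-color Agilent canine 4x44K arrays. The authors deposited Feature Extraction output with spot intensity values, background and dye-normalized processed signals (version 10.7.3.1 per the labels, 10.10.1.1 per the file headers). They also deposited log10 ratios, which matched the scanner output within 4.997e-06. The scanner files give canFam2 coordinates. Scaling to the median array, the signal filter at 10 and the thresholds followed the methods.

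Control and outlier spots were left out, spots of a probe and dye-swap arrays were averaged, and limma 3.58.1 in R 4.3.3 (eBayes with trend, Benjamini-Hochberg) tested 40861 probes, as 3 lines for ratios and 6 extracts for levels (Aquantile). Scripts were tested on simulated data. pandas 2.3.3 and matplotlib 3.10.9 were used. The number of arrays limits the precision. Nothing in the labels says that the lines were cultured more than once. The replicate number marks the dye orientation: ratios of same-numbered arrays correlated across probes at -0.22, 0.03 and 0.40 for number 1 and 0.47, 0.51 and 0.61 for number 2. Members and gene lists were chosen with earlier results of these data known. All members and probes were described. Of each list, up to 3 genes per direction with the largest change past the thresholds were named, and the 3 genes most alike in level for each brightest probe well above background throughout.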

Additional observations from a re-analysis of the deposited data

Results flagged for a closer look

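At 4 probes both arrays of P114 lay below 0 and both arrays of another line above 0 in log2 ratio, so the lines moved in opposite ways on every array of the pair. At STAT3 probe 1 the mean of CMT-U27 exceeded that of P114 by 0.88 and the mean of CMT-U309 by 1.17. At STAT3 probe 4 CMT-U27 exceeded P114 by 0.19. At JAK1 probe 2 CMT-U309 exceeded P114 by 0.39, and at STAT5B by 0.42. None of these differences was tested, since both arrays of a line carry the same RNA.

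STAT5A on P114 replicate 1 had a log2 ratio of -0.73, far below the other 5 arrays, which lay between 0.10 and 0.58. Chance sets about 1 in 20 such groups apart, and 13 probes were searched.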

How the results depend on the processing

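No member probe passed the methods' thresholds under any alternative run. Counts at adjusted p for the ratio were 0 under every other setting and 0 to 3 when a line or an array was left out. With the replicate number, which marks the dye, as a replicate block, and without it, 0 member probes were called in the ratio, and in level the counts at adjusted p were 7, 8 and 11 with the block as without it. The probes were not the same as in the fit of extracts: with the block STAT3 probe 1 passed between P114 and CMT-U309 (limma adjusted p = 0.0265) and JAK1 probe 3 between CMT-U27 and CMT-U309 (adjusted p = 0.0299), while JAK1 probe 5 had no value. Single probes changed call 20 times to lost and 22 times to gained in level, and 9 times to gained in ratio. Sign changes of uncalled values numbered 17 in ratio and 7 in level. No called value changed sign.

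The number of probes over 2-fold between lines depended most on the processing. Under normexp correction it went from 4 to 1 for P114 and CMT-U27, from 2 to 1 for P114 and CMT-U309 and from 6 to 2 for CMT-U27 and CMT-U309. For P114 and CMT-U309 it was also 1 with median scaling, with outlier spots kept, with array means with or without the replicate block and with 12 single channels. With an array left out these counts ranged from 3 to 6, 1 to 3 and 5 to 7. The cause was not tested. JAK1 probe 5 had no value without P114 replicate 1 or in fits of all 6 arrays. The limma ratio rests on 3 lines, and the level on extracts that share a slide per line.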
